A study of Mus musculus with 12 samples.

Results

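Egr1, Egr2, Egr3 and Egr4, Nr4a1, Nr4a2 and Nr4a3, and Npas4 are 8 transcription factor genes that neurons switch on within minutes of electrical activity. They were taken by gene symbol, all 8 were found among the 17202 genes of the table, and all 8 were among the 17111 genes tested. The study sequenced RNA from the frontal cortex of 12 mice, with 3 mice in each of 4 groups. VEH-WT were wild-type mice without drug, VEH-CD were CD mice without drug, and VERCUR-WT and VERCUR-CD were wild-type and CD mice that drank curcumin together with verapamil. CD mice model Williams-Beuren syndrome and carry a heterozygous deletion, in every cell of the body, of the stretch from Gtf2i to Fkbp6, so that a single copy of these genes remains. Curcumin is a phenol of turmeric, and verapamil blocks voltage-dependent calcium channels. The mice were males, of the strain C57Bl6 per the labels and mostly of C57BL/6J background per the paper, and the CD line had been crossed with a line in which Thy1 drives a yellow fluorescent protein in pyramidal neurons. Per the labels, curcumin was given in the drink at 60 mg/kg/day with verapamil at 10 mg/kg/day, starting at 8 weeks of age and lasting 1 month, and the mice were 16 weeks old at the end. The control mice are untreated in the labels, while the paper names a vehicle, a lower dose of verapamil and a younger age at the end. What the mice did in the hour before the tissue was taken is not given in the sources used here.

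EGR proteins bind a GC-rich site through zinc fingers, NR4A proteins are orphan nuclear receptors that act without a known natural ligand, and NPAS4 is a bHLH-PAS factor induced by calcium entry. Calcium entry and MAP kinase signaling act on CREB and SRF that are already bound at the promoters of such immediate early genes, and the RNA appears and disappears quickly. In the cortex the RNA of these genes is widely used as a readout of recent neuronal activity, and the proteins act on later genes of synapses, growth and inhibition. In RNA from whole tissue, fewer cells that express a gene and less RNA per cell cannot be told apart.

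The promoters of these genes are where activity-dependent signals arrive, so the windows around their annotated starts are shown for the 6 genes that matched a RefSeq table of promoters of GRCm38.p6. Egr1 and Egr3 are named only. Each window holds 300 bases, printed from the upstream end on the strand of the gene. Capitals mark the CREB core (TGACG, read CGTCA on the other strand, contained in the full CRE, TGACGTCA), the CArG box bound by SRF (CC, 6 letters that are A or T, and GG) and the EGR site (GCGGGGGCG or GCGTGGGCG on either strand). The windows are Egr2 chr10:67537619-67537918 on the plus strand, Egr4 chr6:85513540-85513839 on the minus strand, Nr4a1 chr15:101266596-101266895 on the plus strand, Nr4a2 chr2:57123954-57124253 on the minus strand, Nr4a3 chr4:48045055-48045354 on the plus strand and Npas4 chr19:4989922-4990221 on the minus strand.
Egr2: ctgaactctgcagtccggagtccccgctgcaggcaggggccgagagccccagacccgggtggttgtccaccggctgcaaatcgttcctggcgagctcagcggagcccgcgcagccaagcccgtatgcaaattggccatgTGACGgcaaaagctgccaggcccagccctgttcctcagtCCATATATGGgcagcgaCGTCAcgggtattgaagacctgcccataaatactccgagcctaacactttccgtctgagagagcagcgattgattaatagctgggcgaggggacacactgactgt
Egr4: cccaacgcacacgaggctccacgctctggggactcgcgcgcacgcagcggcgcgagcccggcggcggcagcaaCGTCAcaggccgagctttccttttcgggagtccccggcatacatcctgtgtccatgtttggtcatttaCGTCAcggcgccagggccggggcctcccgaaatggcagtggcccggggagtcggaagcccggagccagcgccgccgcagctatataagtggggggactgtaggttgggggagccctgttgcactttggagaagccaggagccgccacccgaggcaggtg
Nr4a1: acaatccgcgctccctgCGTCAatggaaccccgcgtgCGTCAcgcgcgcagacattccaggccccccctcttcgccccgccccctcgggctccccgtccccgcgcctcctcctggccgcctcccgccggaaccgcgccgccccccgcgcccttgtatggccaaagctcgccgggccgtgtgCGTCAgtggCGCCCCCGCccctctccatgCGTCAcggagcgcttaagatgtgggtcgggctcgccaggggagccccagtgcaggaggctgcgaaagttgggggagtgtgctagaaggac
Nr4a2: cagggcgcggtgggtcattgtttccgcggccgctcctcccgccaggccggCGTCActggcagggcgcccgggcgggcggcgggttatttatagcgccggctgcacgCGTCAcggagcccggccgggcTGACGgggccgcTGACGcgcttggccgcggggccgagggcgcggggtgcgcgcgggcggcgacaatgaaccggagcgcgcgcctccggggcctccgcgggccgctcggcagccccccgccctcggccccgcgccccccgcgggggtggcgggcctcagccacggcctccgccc
Nr4a3: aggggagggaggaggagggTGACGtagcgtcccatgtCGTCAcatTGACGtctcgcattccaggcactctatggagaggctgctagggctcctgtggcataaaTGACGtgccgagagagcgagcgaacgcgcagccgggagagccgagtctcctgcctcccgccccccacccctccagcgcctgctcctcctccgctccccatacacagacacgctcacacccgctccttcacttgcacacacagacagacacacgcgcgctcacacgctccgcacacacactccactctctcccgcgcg
Npas4: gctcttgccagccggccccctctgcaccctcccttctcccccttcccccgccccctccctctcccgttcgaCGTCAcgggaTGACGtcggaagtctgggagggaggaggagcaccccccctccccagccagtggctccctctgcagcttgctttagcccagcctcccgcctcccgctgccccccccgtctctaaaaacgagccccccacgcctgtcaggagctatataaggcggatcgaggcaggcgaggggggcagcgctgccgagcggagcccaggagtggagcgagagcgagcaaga

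Every one of the 6 genes had a window with at least 2 CREB cores. The windows of Egr2, Egr4 and Npas4 shown held 2 each, and those of Nr4a1, Nr4a2 and Nr4a3 held 4 each. Of the 32817 promoters in the table, 20.8% held at least 1 CREB core and 5.01% held 2 or more. These shares are per window and not per gene. The table lists 5 windows for Egr2, of which 3 overlap and hold the same 2 CREB cores and the same CArG box. The other windows of Egr2 hold no CREB core, and 1 of them holds a different CArG box. Of all promoters, 1.63% hold at least 1 CArG box. In the Egr2 window shown, the CArG box began 72 bases before the start, between CREB cores that began 111 and 55 bases before it. Nr4a1 was the single gene with an EGR site, 60 bases before the start and between 2 CREB cores (3.47% of all promoters). The whole CRE (1.79% of all promoters) and the NBRE bound by single NR4A proteins, AAAGGTCA (1.51%), were not found in these windows. The core CGTG, which NPAS4 binds in a longer site, was present in all windows and in 61.7% of all promoters, and it overlaps a CREB core wherever the letters CGTGACG or CGTCACG occur. These matches describe letters only.

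Between 40287644 and 56480947 reads were counted on genes per mouse, and the values are normalized counts, the reads counted on a gene divided by 1 factor per mouse. Log2 values correlated with r from 0.986 to 0.994 across genes between mice of a group, and genes are not independent replicates. All 22 tested genes of the deleted stretch had lower values in both comparisons of CD with wild-type mice, 16 of them past the threshold in each, with a median fold of 0.522 in VEH-CD vs VEH-WT and 0.479 in VERCUR-CD vs VERCUR-WT. A gene was called differentially expressed (DEG) when its adjusted p was under 0.05 and it differed by more than 25% up or down, from limma fitted across all genes on log2(normalized count + 1), and all fold changes are on that scale. Nothing in the labels says how the mice of a group relate to each other. The p values set a difference between groups against the spread between these mice within groups, estimated over all groups together.

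Positions of whole genes are given in GRCm38 from GENCODE M21. Levels between genes were compared as normalized counts per kilobase of exon. Egr1 was the most abundant of the 8, with a mean of 3805 over the 12 mice, followed by Egr3 at 2392, Nr4a1 at 1332 and Egr4 at 1304 per kilobase. Nr4a2 at 294, Npas4 at 237, Nr4a3 at 200.2 and Egr2 at 142 per kilobase formed a lower tier. The ranges over the mice overlapped between all neighbours in this order but Egr4 and Nr4a2, and those of Nr4a1 (428 to 2392 per kilobase) and Egr4 (691 to 2769) lay largely on each other. The lowest value of all, Egr2 in VEH-CD mouse 1, still rested on 59 reads.

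The VEH-WT mice had the highest group mean for all 8 genes, and the VEH-CD mice the lowest for 7 of them. VEH-WT mouse 2 had the highest value of all 12 mice for each of the 8 genes, and VEH-CD mouse 1 the lowest for 5. Relative to the VEH-WT mean of each gene, the median over the 8 genes was 0.725, 1.3 and 0.978 in VEH-WT mice 1 to 3, and 0.322, 0.665 and 0.396 in VEH-CD mice 1 to 3. It was 0.601, 0.614 and 0.71 in VERCUR-WT mice 1 to 3, and 0.624, 0.449 and 0.548 in VERCUR-CD mice 1 to 3. On this measure each VEH-CD and each treated mouse was below each VEH-WT mouse, VERCUR-WT mouse 3 by the least.

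Egr1 (ENSMUSG00000038418) encodes the best studied EGR factor, needed for lasting synaptic plasticity. Its normalized counts were 18399.8, 34391 and 26027 in the VEH-WT mice and 8033, 17902 and 9262 in the VEH-CD mice. They were 15331, 19965 and 16056 in the VERCUR-WT mice and 14754, 11169 and 13468 in the VERCUR-CD mice. All VEH-CD values were under the lowest VEH-WT value, by a narrow margin for VEH-CD mouse 2, and all VERCUR-CD values were under the lowest VERCUR-WT value.

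Egr2 (ENSMUSG00000037868, chr10:67535475-67542188, plus strand), also known as a master regulator of myelination in Schwann cells, had the widest range of the family, with 19.97 times as much in its highest as in its lowest mouse. The normalized counts were 527, 1346 and 980.4 in the VEH-WT mice and 67.4, 279 and 261 in the VEH-CD mice. They were 432, 247 and 668 in the VERCUR-WT mice and 434, 242 and 299 in the VERCUR-CD mice. VEH-WT and VEH-CD mice did not overlap, and the treated groups lay across each other. Prx, a Schwann cell gene, was between 22.2 and 30.9 normalized counts in every mouse.

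Egr3 (ENSMUSG00000033730, chr14:70077203-70082614, plus strand), which acts with EGR1 in activity-dependent transcription, was the most even of the 8. The normalized counts were 12325, 14567 and 12617 in the VEH-WT mice and 7183, 9325 and 9173 in the VEH-CD mice. They were 9921, 10623 and 9439.7 in the VERCUR-WT mice and 10134, 12467 and 8721 in the VERCUR-CD mice. The 3 VEH-WT and 3 VEH-CD mice were well apart, and of the treated mice only VERCUR-CD mouse 2 reached into the VEH-WT range.

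Egr4 (ENSMUSG00000071341, chr6:85511121-85513589, minus strand), an EGR factor expressed by neurons, had normalized counts of 2995, 5947 and 4246 in the VEH-WT mice and 1484, 2366 and 1744 in the VEH-CD mice. The VERCUR-WT mice had 2718, 2749.9 and 3018, and the VERCUR-CD mice 2549, 1625 and 2164. CD mice were below wild-type mice of the same treatment without overlap in both cases, and VERCUR-WT mouse 3 was just above VEH-WT mouse 1.

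Nr4a1 (ENSMUSG00000023034, chr15:101254269-101274795, plus strand), which restrains the number and placement of excitatory synapses, had normalized counts of 6073, 8395 and 7341 in the VEH-WT mice and 1502, 3785 and 2878 in the VEH-CD mice. The VERCUR-WT mice had 5405, 1650.5 and 5697, and the VERCUR-CD mice 6113, 3009 and 4235. VEH-WT and VEH-CD mice were widely apart, and VERCUR-WT mouse 2 was as low as the VEH-CD mice while the other 2 mice of its group were near the VEH-WT range.

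Nr4a2 (ENSMUSG00000026826, chr2:57106830-57124003, minus strand), which is required for midbrain dopamine neurons and also marks deep cortical and claustral neurons, followed another pattern. Its normalized counts were 1121, 1797 and 1284 in the VEH-WT mice and 1389, 1269.8 and 865 in the VEH-CD mice. They were 535, 1349 and 1276 in the VERCUR-WT mice and 922, 1129.5 and 1387 in the VERCUR-CD mice. All 4 groups overlapped, and the lowest value was that of VERCUR-WT mouse 1.

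Nr4a3 (ENSMUSG00000028341, chr4:48045153-48086447, plus strand), the NR4A receptor with the longest exons of the 8 genes, had normalized counts of 1224, 2709.9 and 1799 in the VEH-WT mice and 713, 1239.7 and 579 in the VEH-CD mice. The VERCUR-WT mice had 1089.6, 1152 and 933, and the VERCUR-CD mice 1128, 904 and 912. VEH-CD mouse 2 was just above VEH-WT mouse 1, so that these groups overlapped, whereas every treated mouse was below every VEH-WT mouse.

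Npas4 (ENSMUSG00000045903, chr19:4984355-4990316, minus strand), which adjusts inhibition onto active neurons, had normalized counts of 946, 1502 and 1339 in the VEH-WT mice and 376, 1143 and 839 in the VEH-CD mice. The VERCUR-WT mice had 1424, 238 and 1365, and the VERCUR-CD mice 957, 603 and 1035. All groups overlapped, and VERCUR-WT mouse 2 was the lowest of the 12 mice, as it was the lowest of its group for Nr4a1 and Egr2.

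**Figure D1:**
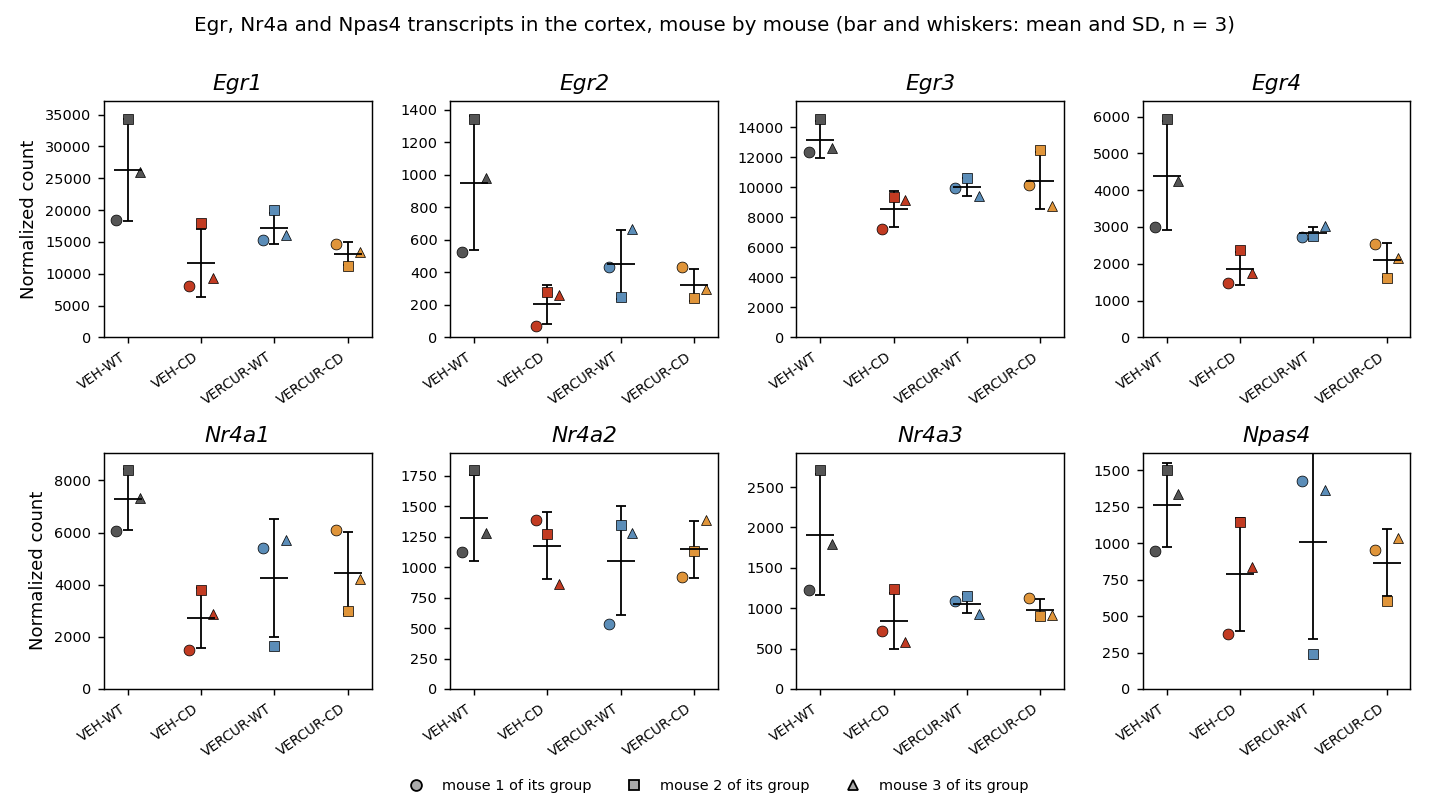
Normalized count (y axis, from 0) of each of the 8 genes in each mouse, by group (x axis), with a symbol for each mouse number and the mean and SD of 3 mice as bar and whiskers. VEH-WT mouse 2 is the top point of all 8 panels, and VEH-CD and VEH-WT points do not overlap in 5 panels (Egr1, Egr2, Egr3, Egr4 and Nr4a1).

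The comparison of VEH-CD vs VEH-WT asks what the deletion goes with in mice without drug. All 8 genes had a lower mean in VEH-CD mice, between 0.213 of the VEH-WT mean for Egr2 and 0.839 for Nr4a2. As means ± SD with n = 3, Egr1 was 26270 ± 7999 in VEH-WT and 11730 ± 5378 in VEH-CD mice, and Egr3 was 13170 ± 1219 and 8561 ± 1195 normalized counts. Log2 fold changes from limma were -1.21 (SE 0.27) for Egr1, -2.37 (SE 0.52) for Egr2, -0.63 (SE 0.13) for Egr3 and -1.21 (SE 0.23) for Egr4. Those of the others were -1.51 (SE 0.44) for Nr4a1, -0.25 (SE 0.31) for Nr4a2, -1.18 (SE 0.28) for Nr4a3 and -0.80 (SE 0.58) for Npas4. The 95% intervals lay below 0 for all but Nr4a2 (-0.93 to 0.43) and Npas4 (-2.06 to 0.46). The median log2 fold change of the 8 genes was -1.19, beside -0.003 over all genes tested.

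In limma, none of the 8 genes was a DEG of VEH-CD vs VEH-WT, where 0.257% of all genes were. The paper, with its own model and a CV correction, called more genes at the same thresholds. It lists Nr4a1 among its deregulated genes and does not mark it as recovered with treatment. The lowest adjusted p values of limma were 0.057 for Egr4, 0.0709 for Egr3, 0.105 for Egr2, 0.112 for Egr1 and 0.136 for Nr4a3, and Nr4a1 (0.218), Npas4 (0.611) and Nr4a2 (0.778) were farther from the threshold. On single tests, with p before adjustment under 0.05 and the same folds, 6 of the 8 genes were lower (all but Nr4a2 and Npas4), beside 2.11% of all genes. The values of the groups did not overlap, VEH-CD being lower, for 5 of the 8 genes, beside 11.4% of all genes. None of these passed the correction over all genes. Without VEH-WT mouse 2, the log2 fold changes were between -2.07 (Egr2) and -0.06 (Nr4a2), negative for all 8, and the lowest adjusted p was 0.214. Leaving out other mice brought single genes past the threshold in limma. Without VEH-CD mouse 2, the adjusted p was 0.0114 for Egr1, 0.0419 for Nr4a3 and 0.0427 for Egr4. Without VEH-WT mouse 1 it was 0.016 for Egr4, and without VERCUR-CD mouse 2, which changes the shared spread only, 0.0241 for Egr3 and 0.0328 for Egr4.

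**Figure D2:**
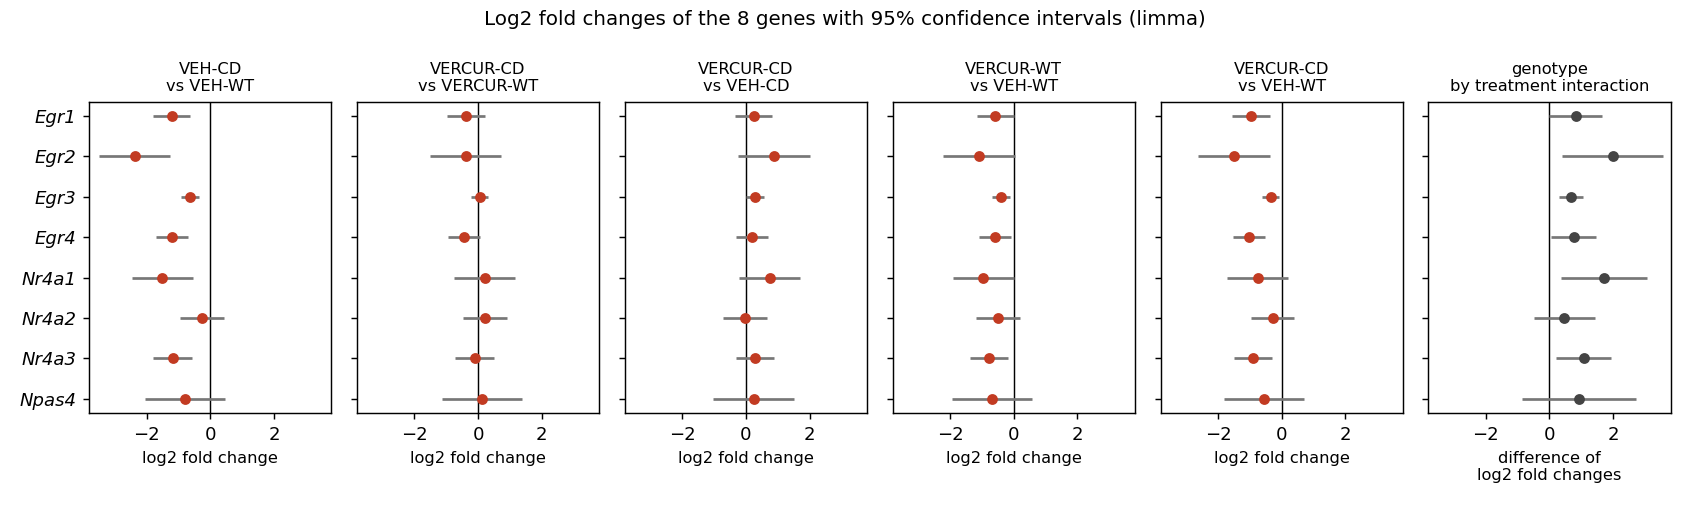
Log2 fold change (points, x axis) with its 95% confidence interval (lines) from limma for the 8 genes (y axis) in 5 comparisons, and the difference between the log2 fold changes of CD over wild-type mice with and without treatment (right panel). In VEH-CD vs VEH-WT all points are below 0, from -2.37 to -0.25, and in VERCUR-CD vs VERCUR-WT they lie on both sides of 0, from -0.44 to 0.22.

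VERCUR-CD vs VERCUR-WT asks the same of the deletion in treated mice. The log2 fold changes were small and of both signs, with 4 genes above and 4 below 0 and a median of -0.03, beside 0.004 over all genes. Egr4 at -0.44 (95% interval -0.94 to 0.06) and Egr1 at -0.38 (-0.97 to 0.20) had CD mice below wild-type mice without overlap, 2 of the 8 genes beside 3.83% of all genes. Egr3 was at 0.05 (95% interval -0.23 to 0.33), the narrowest bound on a difference among the 8. The intervals of all 8 genes held changes of either sign, and those of Npas4 (-1.14 to 1.38) and Egr2 (-1.52 to 0.73) were the widest. No gene of the 8 was a DEG, beside 0.146% of all genes, and none had an unadjusted p under 0.05 with the fold, beside 0.853% of all genes that were lower and 1.15% that were higher on that rule. Without VERCUR-WT mouse 2, the log2 fold changes of Nr4a1 and Npas4 were -0.38 and -0.73 in place of 0.21 and 0.12.

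VERCUR-WT vs VEH-WT asks what the drugs go with in wild-type mice. All 8 genes had lower means in treated wild-type mice, between 0.472 (Egr2) and 0.799 (Npas4) of the VEH-WT mean, with a median log2 fold change of -0.63 beside -0.001 over all genes. The log2 fold change was -0.78 (SE 0.28) for Nr4a3, -0.40 (SE 0.13) for Egr3, -0.58 (SE 0.23) for Egr4 and -0.96 (SE 0.44) for Nr4a1. No gene was a DEG, with adjusted p values of at least 0.944 in limma, and 0% of all genes were. At an unadjusted p with the fold, Egr4, Nr4a1 and Nr4a3 were lower, 3 of 8 beside 1.13% of all genes. Egr3, Nr4a1 and Nr4a3 did not overlap between the groups, 3 of 8 beside 5.25% of all genes. Without VEH-WT mouse 2, the log2 fold changes were between -0.30 and -0.85, and without VERCUR-WT mouse 2 that of Npas4 was 0.17 in place of -0.68.

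In CD mice, the drugs went with smaller differences. In VERCUR-CD vs VEH-CD, 7 of the 8 log2 fold changes were above 0 and Nr4a2 was at -0.03, with a median of 0.26 beside 0.003 over all genes. The largest were 0.89 (95% interval -0.24 to 2.01) for Egr2 and 0.75 (-0.21 to 1.71) for Nr4a1, and Egr3 was at 0.28 (0.01 to 0.56). Every gene overlapped between these groups. None was a DEG, as 0% of all genes were, with adjusted p values of at least 0.867 in limma, and none had an unadjusted p with the fold, beside 1.66% of all genes. The unadjusted p of Egr3 was 0.0464 in limma, with a fold of 1.21.

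VERCUR-CD vs VEH-WT sets the treated CD mice beside the wild-type mice without drug. All 8 genes had lower means in VERCUR-CD mice, between 0.342 (Egr2) and 0.819 (Nr4a2) of the VEH-WT mean, with a median log2 fold change of -0.82 beside 0.002 over all genes. Egr4 was at -1.03 (SE 0.23), Egr1 at -0.96 (SE 0.27), Nr4a3 at -0.89 (SE 0.28) and Egr2 at -1.49 (SE 0.52). No gene was a DEG, beside 0.199% of all genes, and the lowest adjusted p in limma was 0.183 for Egr4. For Egr4 it was 0.0358 without VEH-WT mouse 1 and 0.687 without VEH-WT mouse 2. At an unadjusted p with the fold, these 4 genes were lower, beside 1.41% of all genes, and the same 4 did not overlap with VEH-WT, beside 7.33% of all genes. This comparison shares its VEH-WT mice with 2 of those above and its VERCUR-CD mice with the other 2, so the comparisons are not separate evidence.

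The interaction of genotype and treatment tests whether the difference between CD and wild-type mice was another one with treatment than without. Its log2 value, the difference with treatment minus the difference without, was above 0 for all 8 genes, with a median of 0.87 beside 0.007 over all genes. It was 0.68 (SE 0.18) for Egr3, 1.98 (SE 0.73) for Egr2, 1.71 (SE 0.62) for Nr4a1, 1.07 (SE 0.40) for Nr4a3 and 0.77 (SE 0.33) for Egr4. It was 0.83 (SE 0.38) for Egr1, 0.92 (SE 0.82) for Npas4 and 0.47 (SE 0.44) for Nr4a2. None passed an adjusted p of 0.05, as 0% of all genes did, the 8 values lying at 0.816 to 0.836. At an unadjusted p, 5 of the 8 genes were higher (Egr2, Egr3, Egr4, Nr4a1 and Nr4a3), beside 3.72% of all genes, and Egr3 had the lowest unadjusted p, 0.00251 in limma. A change of the genotype difference with treatment was thus not called for any of the 8 genes.

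Mice of 1 group differed from each other more in 7 of these genes than in at least 86.8% of all genes, Egr3 being the exception. The SD within groups on the log2 scale was 0.89 for Npas4, 0.79 for Egr2, 0.67 for Nr4a1, 0.47 for Nr4a2, 0.42 for Nr4a3, 0.41 for Egr1, 0.34 for Egr4 and 0.18 for Egr3, beside a median of 0.14 over all genes. Npas4 varied more than 99% of the genes tested, Egr2 more than 98.8% and Nr4a1 more than 98.1%, while Egr3 varied more than 63.1%. The spread was not the same in every group. The CV of Egr4 was 5.82% in VERCUR-WT mice and 33.7% in VEH-WT mice, and that of Nr4a3 was 10.7% and 39.2%, whereas the CV of Npas4 was 66.2% in VERCUR-WT mice and 22.7% in VEH-WT mice.

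**Figure D3:**
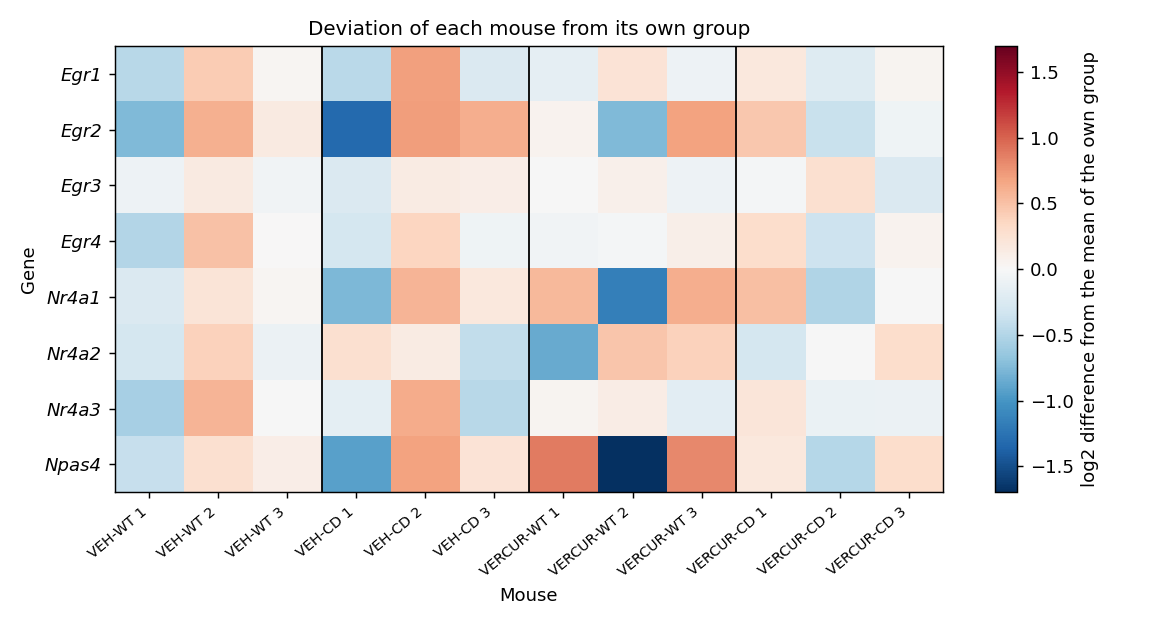
Difference on the log2 scale of each mouse (columns) from the mean of its own group for each of the 8 genes (rows), red above and blue below, with lines between groups. VEH-WT mouse 2 and VEH-CD mouse 2 are above their groups in all 8 rows, and VERCUR-WT mouse 2 is far below its group for Npas4, Nr4a1 and Egr2 and above it for Egr1, Egr3, Nr4a2 and Nr4a3.

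Deviations from the group means fell into sets of genes that moved together from mouse to mouse. Over the 12 mice, which are 12 libraries shared by all genes, the deviations of Nr4a1 and Npas4 correlated with r = 0.964 (Spearman's rho 0.888) and with r = 0.903 without the 2 mice farthest from the median of Nr4a1. Egr1 and Nr4a3 had r = 0.906 (rho 0.895), and Egr1 and Egr4 r = 0.875 (rho 0.881). Without the 2 mice farthest from the median of Egr1, r was 0.779 and 0.811. Egr4 and Nr4a3 had r = 0.821, and Egr2 and Nr4a1 r = 0.850. Of the 28 pairs, these 5 were above 0.8. Egr2 stood between, with r = 0.757 with Egr4 and 0.795 with Npas4, whereas Egr1 had r = 0.326 with Nr4a1 and 0.244 with Npas4. The highest r of Egr3 was 0.389, with Egr1, and 0.128 without the 2 mice farthest from the median of Egr1. Without the 2 mice farthest from its own median, the r of Egr3 was 0.643 with Egr4 and 0.531 with Nr4a3. With all mice these were 0.206 and 0.364. The r of Nr4a2 ran from r = -0.382 with Nr4a1 to 0.354 with Egr1. These are descriptions over few mice.

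Outside the 8 genes, those most like them over the 12 mice were found by Pearson's r with the mean of the 8 standardized log2 values, among 17103 genes with a median r of 0.001. The 10 highest were Cnot9, a subunit of the deadenylase complex (r = 0.964), Slc25a25, a mitochondrial ATP-Mg carrier (0.957), Ppp2r1b, a scaffold of phosphatase 2A (0.954), Fosl2, an AP-1 factor (0.952), Nup50, a nuclear pore protein (0.945), Mfap3 (0.941), Ncbp3, a cap-binding protein (0.936), Ints13, an Integrator subunit (0.935), Cnnm4, a magnesium transporter (0.931), and Urb2 (0.931). With deviations from the group means in place of values, r was between 0.768 (Cnnm4) and 0.948 (Cnot9). Their own log2 fold changes in VEH-CD vs VEH-WT ran from -1.15 (SE 0.24) for Fosl2 and -0.61 (SE 0.13) for Ppp2r1b to -0.17 (SE 0.07) for Cnot9. Cnnm4, at -0.48 (SE 0.09) and an adjusted p of 0.0489 in limma, was the single DEG among them, beside 0.257% of all genes. The 10 genes were picked for following the 8 genes over the same mice. Their lower values in VEH-CD mice follow in part from that choice and are not separate evidence.

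**Figure D4:**
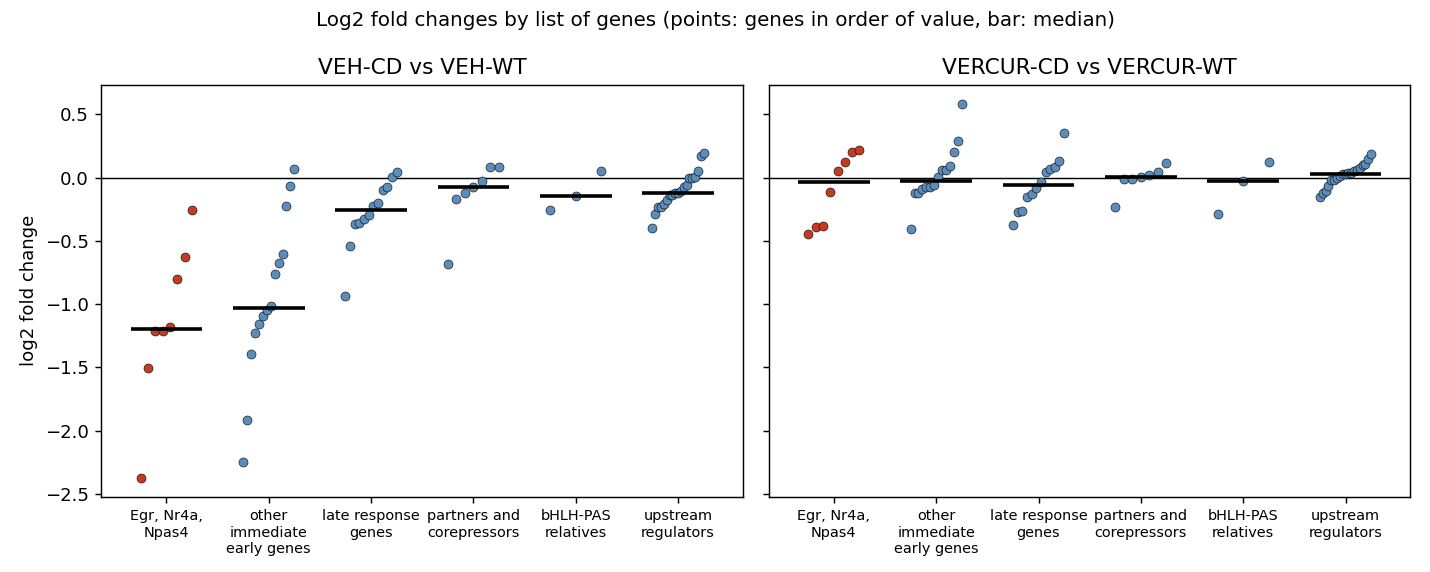
Log2 fold change (y axis) of the 8 genes (red) and of the genes of 5 lists (blue) in VEH-CD vs VEH-WT (left) and VERCUR-CD vs VERCUR-WT (right), each point 1 gene in order of value and each bar the median. On the left the medians are -1.19 for the 8 genes and -1.03 for other immediate early genes and between -0.26 and -0.08 for the other lists, and on the right they lie between -0.06 and 0.03.

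Other immediate early genes had log2 fold changes from -2.24 to 0.07 in VEH-CD vs VEH-WT. Of 14, 13 were below 0, with a median of -1.03, none was a DEG, and 8 were lower at an unadjusted p with the fold, beside 2.11% of all genes. Arc, which encodes a synaptic protein that drives receptor endocytosis, was lowest at -2.24 (SE 0.69, adjusted p 0.233 in limma) and the AP-1 gene Fos next at -1.91 (SE 0.51, adjusted p 0.181). Arc was 20198, 34120.1 and 25465 normalized counts in the VEH-WT mice and 2658, 7209.8 and 8603 in the VEH-CD mice, and in VERCUR-WT mouse 2 it was 1948, beside 14339 and 19267 in the other mice of that group. Jun at -0.07 and Amigo3 at 0.07 were the highest of the list. In VERCUR-CD vs VERCUR-WT the median of these 14 genes was -0.02, with 7 above and 7 below 0.

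Regulators and partners of the 8 genes were described in the same way. Of 19 upstream regulators, none was a DEG of VEH-CD vs VEH-WT or had an unadjusted p under 0.05 with the fold, 14 were below 0 and the median was -0.12. Srf, the factor of the CArG box, was lowest at -0.40 (SE 0.08, adjusted p 0.0697 in limma). It had 2189, 2609 and 2470.1 normalized counts in the VEH-WT mice and 1769.8, 2018 and 1731 in the VEH-CD mice. These do not overlap, beside 11.4% of all genes that were lower without overlap. The CRE-binding factor Crem was next at -0.28 (SE 0.09), and the kinase gene Mapk3 at 0.20 (SE 0.07) and the SRF partner Elk1 at 0.17 (SE 0.09) were highest. Of 7 partners, Nab2, a corepressor of EGR factors, was lowest at -0.69 (SE 0.18, adjusted p 0.166), the single one of the 7 that was lower at an unadjusted p with the fold (2.11% of all genes), and the other EGR corepressor gene Nab1 was at -0.17. The retinoid X receptor genes Rxrb and Rxrg were at 0.08 each. Of the relatives of Npas4, Npas1 was at -0.15, Npas2 at 0.05 and Npas3 at -0.25, and none of the 3 had an unadjusted p under 0.05 with the fold. Wt1, a relative of the EGR genes, was not analysed here.

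Among 12 genes listed here as late response genes, none was a DEG of VEH-CD vs VEH-WT and 10 were below 0, with a median of -0.26. Csrnp1, a nuclear factor, was lowest at -0.94 (SE 0.33) and Homer1, a postsynaptic scaffold, next at -0.54 (SE 0.21), the 2 of the 12 that were lower at an unadjusted p with the fold, beside 2.11% of all genes. Inhba at 0.04 and Rasgrp1 at 0.01 were highest. In VERCUR-CD vs VERCUR-WT the medians were -0.06 for late response genes, 0.00 for partners and 0.03 for upstream regulators, and no gene of these lists was a DEG in any of the 6 comparisons.

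Markers of the cells in the tissue were set beside these results. The summed level of 4 markers of cortical excitatory neurons (Slc17a7, Neurod6, Tbr1 and Cux2) was 113200 to 119800 normalized counts in VEH-WT and 116400 to 124500 in VEH-CD mice, and their median log2 fold change was 0.006. The summed level of the 3 inhibitory markers (Gad1, Gad2 and Slc32a1) was 27860 to 31460 in VEH-WT and 24880 to 26660 in VEH-CD mice, with 3 of 3 below 0 and a median of -0.20. All 4 oligodendrocyte markers were lower in value in VEH-CD mice (median -0.22), and all 4 hemoglobin genes were higher in value in VEH-CD mice, with sums of 20560 to 35550 and 17370 to 25810 in VEH-WT mice. The part of inhibitory neurons, oligodendrocytes and blood in the results on the 8 genes was not tested.

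Striatal markers were uneven between mice. The sum of 4 striatal markers (Drd1, Drd2, Adora2a and Rgs9) was 3190 to 6953 in VEH-WT and 3221 to 8285 in VEH-CD mice, with a median log2 fold change of 0.06, and 1117 to 8716 in VERCUR-WT and 1085 to 6344 in VERCUR-CD mice. All 4 were lower in value in VERCUR-WT vs VEH-WT (median -1.02) and in VERCUR-CD vs VEH-CD (median -1.55). VERCUR-WT mouse 2, lowest for Npas4, had a striatal sum of 1117, and VERCUR-WT mice 1 and 3, with 1424 and 1365 normalized counts of Npas4, had sums of 1161 and 8716. VEH-CD mouse 1, lowest for 5 of the 8 genes, had a striatal sum of 8285, beside 3377 and 3221 in VEH-CD mice 2 and 3. VEH-WT mouse 3 had a sum of 6953, and its median over the 8 genes was 0.978 of the VEH-WT mean. The 4 oligodendrocyte markers were all below 0 in VERCUR-WT vs VEH-WT (median -0.49, sums of 64070 to 168600 and 118600 to 187700). Of the 4 microglia markers in VERCUR-CD vs VEH-WT, Cx3cr1 was at 0.28 (SE 0.09) and P2ry12 at 0.36 (SE 0.14). Csf1r was at 0.07 and Tmem119 at -0.02, and none of the 4 was a DEG. Cx3cr1 did not overlap between the groups, beside 6.56% of all genes that were higher without overlap. P2ry12 was higher at an unadjusted p with the fold, beside 2.09% of all genes. The sum of the 4 microglia markers was 9903 to 11600 normalized counts in VEH-WT, 10630 to 12160 in VEH-CD, 10550 to 12120 in VERCUR-WT and 11460 to 12670 in VERCUR-CD mice. All 4 astrocyte markers were above 0 in VERCUR-CD vs VEH-WT (median 0.12) and in VERCUR-WT vs VEH-WT (median 0.10), with sums of 32800 to 41090 in VEH-WT, 39450 to 41960 in VERCUR-WT and 38400 to 45170 in VERCUR-CD mice. The 3 endothelial markers had sums of 4341 to 6645 and the 3 choroid plexus markers of 69.3 to 153 over all mice, and none was past the threshold at an unadjusted p in any comparison. Of the 34 marker genes, none was at 0 in any mouse. The 3 inhibitory markers were all below 0 in VERCUR-WT vs VEH-WT (median -0.12) and in VERCUR-CD vs VEH-WT (median -0.17). Their mean sums were 29430 in VEH-WT, 25610 in VEH-CD, 26190 in VERCUR-WT and 25970 in VERCUR-CD mice. The part of inhibitory neuron, striatal, oligodendrocyte, microglia and astrocyte RNA in the results on the 8 genes was not tested.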

How the data were processed

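The authors aligned paired-end reads of cortex RNA to GRCm38 with STAR 2.5.3a (from the submitters' processing notes), counted them per gene and deposited normalized counts for each of the 12 mice. The counting program, the normalization and the use of strand are not given in the sources used here. The deposited table is in normalized counts, which are not raw counts. In each mouse, 100% of the low values fell on multiples of a single step (within 0.1 of it), from which depth was taken and nothing else. The authors also deposited a table of expression relative to WT for their top genes and one for genes they call recovered. Neither was used.

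Mice were grouped by their labels. Log2(normalized count + 1) of the 17111 genes with a mean of at least 10 was modelled with limma 3.58.1 (R 4.3.3), using 4 group means, all 12 mice and an intensity trend. Tests were two-sided, with Benjamini-Hochberg adjustment across every gene of a comparison. No permutation test is given, since its exact p for 3 mice against 3 is at least 0.1. The test was run on simulated data first. Positions and exon lengths are those of GENCODE M21. The 8 genes and the lists were chosen with earlier results of these data known. From the lists, genes called in any comparison and the 2 lowest and 2 highest in VEH-CD vs VEH-WT are named, with the 10 genes most like the 8. Alternatives were other pseudocounts, filters, scalings, designs and thresholds, the removal of single values and leaving out each mouse. Count tests planned as alternatives were not run, as the values are not raw counts. Wt1 was not analysed here, and a few marker genes were left out of the lists and are not reported here.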

Additional observations from a re-analysis of the deposited data

How the results depend on the processing

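The number of the 8 genes called was 0 in each comparison, and it remained 0 with pseudocounts of 0.1 and 5, with no filter or a mean of at least 50, after quantile normalization or centring on the median log2 ratio, with only the groups compared and with no intensity trend. The paper names a correction at a CV under 20% and does not say how it was done. Removing the value farthest from the median in groups with a CV of 20% or more is a choice made here. This removal lowers the spread by its construction. It called 7 in VEH-CD vs VEH-WT (972 of all genes, against 44), 1 in VERCUR-WT vs VEH-WT (649, against 0), 6 in VERCUR-CD vs VEH-WT (840, against 34) and 5 in the interaction (492, against 0). There, log2 values turned for Nr4a2 in VEH-CD vs VEH-WT (0.15), VERCUR-WT vs VEH-WT (0.13) and the interaction (-0.51), for Nr4a1 (-0.64), Nr4a2 (-0.36) and Npas4 (-0.49) in VERCUR-CD vs VERCUR-WT and for Egr2 in VERCUR-CD vs VEH-CD (-0.005). None of these was called. Unadjusted p values called 6, 3, 4 and 5 in the same order of comparisons (801, 406, 600 and 1035 of all genes). With the replicate block, 1 was called in VEH-CD vs VEH-WT (Egr3, adjusted p 0.0306 in limma, 40 of all genes) and none elsewhere. The labels' numbers do not say that mice were paired. The deviations of same-numbered mice correlated with r from -0.347 to 0.267. A mouse correlated best with its own number in 14 of 36 checks against another group, each a choice among 3 mice. Leaving out 1 mouse gave 0 to 3 in VEH-CD vs VEH-WT, 3 without VEH-CD mouse 2 (Egr1, Egr4 and Nr4a3, 47 of all genes), 2 without VERCUR-CD mouse 2 (Egr3 and Egr4, 71 of all genes) and 1 without VEH-WT mouse 1 (Egr4, 47 of all genes). It gave 0 to 1 in VERCUR-CD vs VEH-WT, where Egr4 was called without VEH-WT mouse 1 (39 of all genes), and 0 in the other comparisons. In VERCUR-CD vs VERCUR-WT the log2 values then ran from -0.087 to 0.17 for Egr3, -0.38 to 0.52 for Nr4a1, -0.22 to 0.45 for Nr4a2 and -0.73 to 0.56 for Npas4. They ran from -0.23 to 0.12 for Nr4a2 and -0.22 to 0.58 for Npas4 in VERCUR-CD vs VEH-CD, and from -1.12 to 0.17 for Npas4 in VERCUR-WT vs VEH-WT. Beyond that, the cause was not tested where a call changed. The planned edgeR and DESeq2 alternatives were not run. With 3 mice a group, intervals are widest for Npas4, Egr2 and Nr4a1. The lowest value of the 8 genes rests on 59 reads.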
